A study of Mus musculus with 2 samples.

Results

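The naive and quiescent T cell genes comprised 9 genes that resting T cells are known to express: the receptor genes S1pr1 and Il7r and the genes of the nuclear factors Klf2, Foxo1, Tcf7, Lef1, Satb1, Bach2 and Id3. Members were the probes annotated to 1 of these symbols alone. Of the 9 genes, 8 were measured, by 13 of the 26926 probes of the array that carried a single gene. These were 8 of 17501 measured genes. Tcf7 had no probe under its symbol or gene number in the annotation used here, and its level was not analysed here.

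RNA came from mouse lymphocytes of a TRP-1 mouse, polarized in culture to the Th1, the Th17 or the Th0 state. Th0 is the usual name for activated T cells given no lineage-directing cytokines, Th1 cells make interferon gamma, and Th17 cells make interleukin 17. Each of 2 two-colour arrays held 1 polarized population, labelled with Cy5, and the Th0 population, labelled with Cy3; they are called the Th1 array and the Th17 array below, and both set a polarized state against Th0. All populations share the same kind of donor animal. The culture conditions, the purity of the T cells, the age of the animal and whether one Th0 RNA served both arrays are not given in the sources used here. Each comparison rests on a single array (1 per comparison), unreplicated and without swapped dyes, so no value below was tested and the number of arrays limits the precision.

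A T cell that has not met its antigen is kept small, non-dividing and recirculating. Foxo1, a forkhead factor held out of the nucleus by AKT signalling, is known to maintain transcription of Klf2 and Il7r, and Klf2 in turn maintains S1pr1, the sphingosine 1-phosphate receptor that lets T cells leave lymph nodes. Il7r, the alpha chain of the interleukin 7 receptor, carries a survival signal. Lef1 and Tcf7 are closely related HMG-box factors of early and memory-like T cells, Satb1 organises chromatin in thymocytes and peripheral T cells, Bach2 represses effector genes, and Id3 blocks E proteins. Activation through the antigen receptor is known to lower many of these transcripts.

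The deposited values were log2 ratios of the channels of 1 array. The table states no numerator. Read as the titles and dyes put it, a negative value means less RNA in the polarized cells than in Th0 cells; with the opposite sign, more. Of 8 lineage cytokine genes and marks, 6 lay below 0 on the Th1 array and 7 on the Th17 array. Those of each array's own lineage lay against the titled reading. On the Th17 array Ccl20 was at −6.48, Il22 at −5.79, Il17a at −5.37, Il21 at −4.17, Il17f at −2.38 and Il23r at −1.88. On the Th1 array Ifng was at −2.02 and Il12rb2 at −0.59. Values are therefore given as deposited, by side of 0, and sizes hold under both readings. Where a gene has a pair of values, the Th1 array comes first and the Th17 array second. A gene was called when it was at least 2-fold from 0, an absolute log2 ratio of at least 1. The sole repeat measure was the variation among probes that share a gene, whose pooled SD was 0.51 (Th1 array), 0.49 (Th17 array) and 0.52 for the difference between arrays, over 5886 genes. It holds no spread between samples.

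To show the regulatory sequence beside the values, the stretch before the start site is printed for Satb1 and Il7r, the members farthest from 0 on the Th1 array, and for Klf2, the member on the opposite side there. Sequences are from RefSeq (GRCm38.p6), written 5′ to 3′ on the strand of the gene, and leave out bases inside the annotated span of the gene. Capitals mark matches to any of 5 short motifs searched on both strands: GTAAACA (forkhead core), CACCC (KLF core), CTTTGA (TCF/LEF core), TGACTCA (AP-1 and BACH core) and CANNTG (E-box, bound by the E proteins that Id3 blocks). The Satb1 stretch is chr17:51833291-51833540 on the minus strand, Il7r is chr15:9529942-9530126 on the minus strand, and Klf2 is chr8:72318812-72319061 on the plus strand.
Satb1: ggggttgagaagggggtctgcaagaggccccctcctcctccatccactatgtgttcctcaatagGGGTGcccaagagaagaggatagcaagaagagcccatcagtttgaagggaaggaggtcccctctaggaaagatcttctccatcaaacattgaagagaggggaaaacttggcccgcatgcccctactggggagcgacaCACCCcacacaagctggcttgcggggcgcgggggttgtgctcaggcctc
Il7r: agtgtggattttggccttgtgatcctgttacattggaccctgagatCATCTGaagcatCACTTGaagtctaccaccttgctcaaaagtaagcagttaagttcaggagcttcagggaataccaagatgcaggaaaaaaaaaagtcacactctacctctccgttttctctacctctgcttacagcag
Klf2: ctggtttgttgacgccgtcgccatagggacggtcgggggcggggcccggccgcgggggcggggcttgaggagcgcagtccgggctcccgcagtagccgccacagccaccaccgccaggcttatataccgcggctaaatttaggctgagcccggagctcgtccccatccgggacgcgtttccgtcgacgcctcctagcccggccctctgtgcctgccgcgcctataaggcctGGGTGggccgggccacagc

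Over the whole 250 bases before each start, 8 of the 9 genes, Tcf7 among them, had 16 windows in the RefSeq table. Lef1 had 4 of these windows and Satb1 had 5, of which 1 is printed. Some windows of these genes overlap, so the 16 are not separate sequences and window counts repeat some matches. The KLF core stood in 12 of these windows, from 5 of the 8 genes, and in 52.0% of all 32851 windows of that length. E-boxes stood in 9 of the 16 windows and in 66.2% of all. The TCF/LEF core stood in 2 windows, 1 of Bach2 and 1 of Lef1 (13.8% of all). The forkhead and the AP-1 and BACH cores stood in 0 of the 16, and in 3.17% and 4.46% of all. No base of these windows lay in matches to more than 1 motif. In the printed stretches Satb1 held 2 KLF cores, Klf2 held 1, and Il7r held 2 E-boxes. A match is a run of letters and not a shown binding site.

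On the Th1 array 2 of the 8 measured genes, Satb1 and Il7r, were at least 2-fold to the negative side, against 6.92% of all genes, and 0 were at least 2-fold to the positive side, against 3.27%. On the Th17 array 3 of the 8, Bach2, S1pr1 and Satb1, were at least 2-fold to the negative side, against 5.52% of all genes, and 0 to the positive side, against 2.90%. The median over the 8 was −0.64 on the Th1 array and −0.88 on the Th17 array, beside −0.076 and −0.033 over all genes. At 1.5-fold, 4 members were called negative on the Th1 array, beside 16.5% of all genes, and 6 on the Th17 array, beside 13.0%. By single probes 3 of 13 were at least 2-fold negative on the Th1 array, beside 7.02% of all single-gene probes, and 5 of 13 on the Th17 array, beside 5.72%. With each array centred on its pan T cell markers, the member medians became 0.054 and 0.12.

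**Figure D1:**
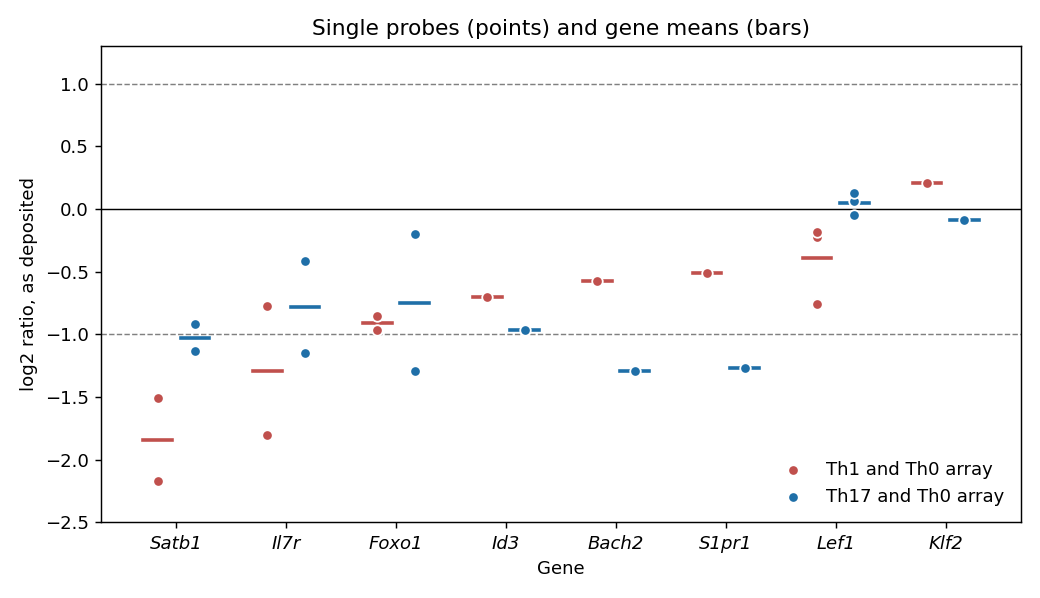
Log2 ratio as deposited (vertical axis) for the 8 measured genes (horizontal axis), with each point 1 probe, each bar the gene mean, and colour the array; dashed lines mark 2-fold. Satb1 and Il7r lie lowest on the Th1 array and Bach2 and S1pr1 on the Th17 array, while Klf2 and Lef1 lie near 0 on the latter; the side of 0 depends on the zero point of the array for most of these genes.

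S1pr1, the exit receptor, lay at −0.51 on the Th1 array (1.43-fold) and at −1.27 on the Th17 array (2.42-fold), each from 1 probe. Of all genes, 19.4% lay lower than S1pr1 on the former and 3.55% on the latter. The difference, Th17 array minus Th1 array, was −0.76, or 1.69-fold, which is larger than the pooled probe SD of 0.52 but is under 2-fold. The other genes for receptors, synthesis and breakdown of sphingosine 1-phosphate, listed together with Cd69 and Gnai2, had no calls. Of these 10 measured genes 0 were at least 2-fold on either array. Their range was −0.90 to 0.60 on the Th1 array and −0.57 to 0.62 on the Th17 array. S1pr5, a receptor best known from natural killer cells, was the lowest of them on both, at −0.90 and −0.57. Cd69, whose protein pulls S1pr1 off the cell surface, lay at −0.06 and 0.62. Sgpl1, the lyase that degrades the lipid, lay at 0.60 and 0.03, and the phosphatase gene Sgpp1 at 0.40 and 0.10.

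Il7r was measured by 2 probes that differed widely. On the Th1 array they held −0.78 and −1.80, a mean of −1.29 (2.45-fold, SD 0.73 between probes), so 1 probe passed 2-fold and the other did not. In the Th17 array the same probes held −0.42 and −1.15, a mean of −0.79 (1.72-fold, SD 0.52). The difference was 0.36 by one probe and 0.65 by the other, a mean of 0.51, about the size of the probe spread. Its partners ranged from −0.70 to 0.56 and from −0.77 to 1.07: of 11 measured genes of its pathway, 0 were called on the Th1 array, and 1 on the Th17 array, on the positive side. That gene was Gfi1, a repressor reported to act on Il7r, at 0.56 and 1.07. Jak1, the kinase that binds the alpha chain, lay at 0.45 and 0.83, Crlf2, which pairs with the alpha chain in the TSLP receptor, at −0.23 and −0.77, and Socs1, a feedback inhibitor, at −0.70 and −0.47.

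Klf2 and Foxo1 did not lie together on the Th1 array, and on the Th17 array this depended on the Foxo1 probe. Klf2 had 1 probe, at 0.20 on the Th1 array and −0.09 on the Th17 array, and was the nearest to 0 of the members on the former. Its difference of −0.29 was smaller than the probe spread. Foxo1 had 2 probes, at −0.96 and −0.86 on the Th1 array (mean −0.91, 1.88-fold) and at −0.20 and −1.30 on the Th17 array (mean −0.75, SD 0.77). The Foxo1 probes thus gave differences on opposite sides, 0.76 and −0.44, so the mean difference of 0.16 has no settled side. The first of them lay, on the Th1 array, at a distance from the most repeated value of the array that a ratio of 13 to 12 would give. Taking that value as equal signals in both channels, which is an assumption, 1 of 13 member probes and 3.75% of all single-gene probes matched a weaker channel of at most 12 units there. On the same assumption no member probe matched one of at most 5 units on either array.

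Among 15 other KLF genes, 1 was called negative and 1 positive on the Th1 array, Klf13 at −1.07 and Klf9 at 1.25, and 2 were called positive on the Th17 array, Klf8 at 1.10 and Klf1, an erythroid factor, at 1.02. Klf13 and Klf9 lay at −0.12 and −0.31 on the Th17 array. Of 11 measured FOXO relatives and genes of the PI3K and AKT pathway that controls them, Foxo4 at −1.35 and Pik3cg, a PI3K subunit, at 1.20 were called on the Th1 array, and Sgk1, a kinase that also phosphorylates FOXO proteins, at −1.15 on the Th17 array. Foxo4 lay at −0.58 and Pik3cg at 0.67 on the Th17 array, and Sgk1 at −0.17 on the Th1 array, with an SD of 0.90 and 0.70 between its 3 probes. Pik3r1, a regulatory PI3K subunit, lay at −0.05 and −0.69.

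Lef1 had 3 probes. On the Th1 array they held −0.76, −0.23 and −0.18, a mean of −0.39 (SD 0.32), and on the Th17 array 0.07, 0.13 and −0.05, a mean of 0.05 (SD 0.09). These Th17 array values lay closely around 0. The difference was positive by each of the probes, at 0.83, 0.35 and 0.13, with a mean of 0.44, less than the pooled probe SD. Of 12 measured TCF/LEF relatives and Wnt pathway partners 0 were called on either array. Ctnnb1, which encodes beta-catenin, the coactivator of these factors, lay at 0.88 and 0.40, the kinase gene Gsk3b at 0.58 and 0.83, Apc at −0.55 and −0.10, and the corepressor gene Tle1 at −0.42 and −0.33.

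Satb1 was the member farthest from 0 on the Th1 array, and there both of its probes passed 2-fold. They held −1.51 and −2.17, a mean of −1.84 (3.58-fold, SD 0.46), and 1.70% of all genes lay lower. On the Th17 array they held −0.92 and −1.14, a mean of −1.03 (2.04-fold, SD 0.15), close to the 2-fold line, and 5.22% of genes lay lower. The difference was 0.59 by one probe and 1.03 by the other, a mean of 0.81 (1.76-fold), the largest positive difference among the members.

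Bach2 lay at −0.57 on the Th1 array (1.49-fold) and at −1.29 on the Th17 array (2.44-fold), from 1 probe, with a difference of −0.72. Bach2 and S1pr1 had the most alike pairs of values of all members, 0.06 apart as a Euclidean distance over the 2 arrays. Klf2 and Satb1 had the least alike, 2.25 apart. The next closest pair, Foxo1 and Id3, lay 0.30 apart. Both small distances are below the pooled probe SDs of 0.51 and 0.49, so the ranking of the closest pairs is not settled. Of 6 measured genes for BACH relatives, small MAF partners and the shared target Hmox1, 0 were called on the Th1 array, and Hmox1 alone on the Th17 array, at 0.28 and −1.17. Bach1 lay at 0.68 and 0.61, Mafg at 0.67 and 0.42, and Mafk at −0.50 and −0.55.

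Id3 lay at −0.70 on the Th1 array (1.62-fold) and −0.97 on the Th17 array (1.96-fold), from 1 probe, so it stood just under 2-fold on the latter. Its difference was −0.27. Id2, the ID gene of effector T cells, lay at 0.14 and 0.74, Id1 at 0.59 and 0.12, and Id4 at −1.98 and 0.18. Of the 6 measured ID and E protein genes, Id4 was called negative and Tcf4 positive on the Th1 array, at −1.98 and 1.62, and Tcf4, an E protein abundant in plasmacytoid dendritic cells, was called positive on the Th17 array at 1.24.

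The 7 pathway lists given beside the members (S1P, interleukin 7 receptor, KLF, FOXO and PI3K, TCF/LEF and Wnt, BACH, ID and E proteins) had medians from −0.062 to 0.23 on the Th1 array and from −0.32 to 0.15 on the Th17 array. The sign of the median turned under at least 1 of 4 other zero points for 7 of the 7 lists on the former and 4 of the 7 on the latter.

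Placed in order, the Th1 array values ran from Satb1 through Il7r, Foxo1, Id3, Bach2, S1pr1 and Lef1 to Klf2. Only the steps from Satb1 to Il7r (0.55) and from Lef1 to Klf2 (0.59) were larger than the pooled probe SD of that array. The step from Satb1 to Il7r was smaller than the SD of 0.73 between the probes of Il7r itself. On the Th17 array the order was Bach2, S1pr1, Satb1, Id3, Il7r, Foxo1, Klf2 and Lef1. Only the step from Foxo1 to Klf2 (0.66) was larger than the pooled probe SD. It was smaller than the SD of 0.77 between the probes of Foxo1 itself, which held −0.20 and −1.30. In the difference between arrays 0 of the 8 members were at least 2-fold, against 3.61% of all genes called negative and 4.53% called positive, and no step between neighbours was larger than the probe SD. At 1.5-fold the difference held 2 negative members and 1 positive member, beside 9.33% and 11.2% of all genes, and by single probes 1 of 13 was at least 2-fold positive, beside 4.63% of all. S1pr1 and Bach2 stood at its negative end and Satb1 at its positive end. That difference rests on the same Th0 RNA having been used for both arrays. Read as titled, S1pr1 and Bach2 would be lower and Satb1 higher in Th17 than in Th1 cells. With the opposite sign, S1pr1 and Bach2 would be higher and Satb1 lower. The listed cytokine genes and marks of each array's own lineage lay against the titled reading, among them Il17a (−5.37, Th17 array) and Ifng (−2.02, Th1 array).

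**Figure D2:**
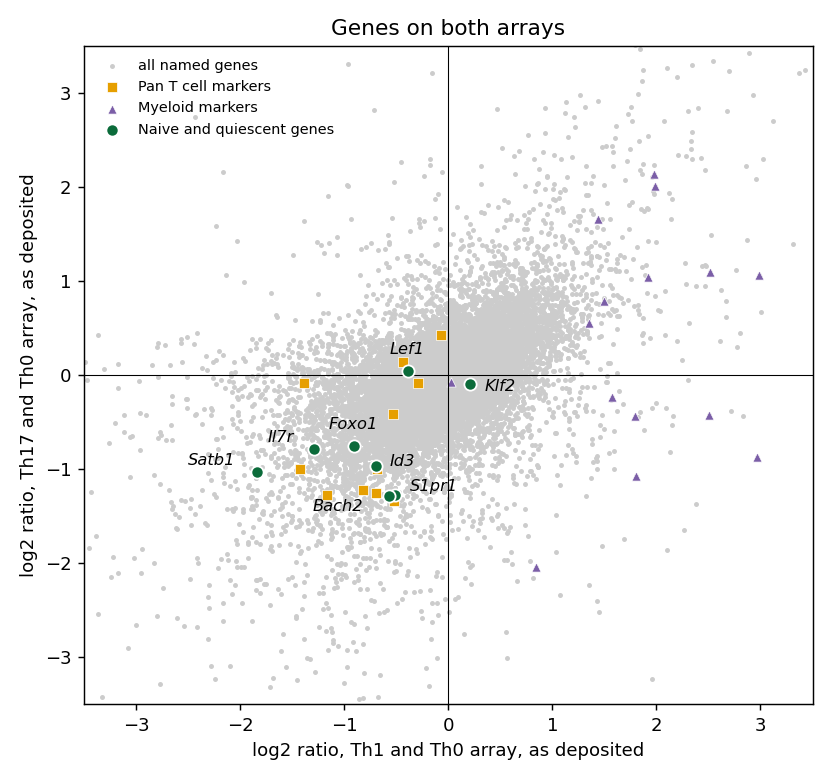
Log2 ratio on the Th1 array (horizontal) and on the Th17 array (vertical), as deposited, for all named genes (grey), the 8 measured naive and quiescent genes (labelled), pan T cell markers and myeloid markers; 108 genes lie outside the drawn range of 3.5 on either side. Satb1 (−1.84) and Klf2 (0.20) lie outside the range of the pan T cell markers on the Th1 array (−1.43 to −0.07). The other labelled genes lie within it, and the myeloid markers lie to the right. Both arrays may hold the same Th0 RNA, so the diagonal shape of the cloud is no result.

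Other genes of naive and resting T cells, 16 of them measured, were listed beside the members. On the Th1 array 4 were called negative and 1 positive, and on the Th17 array 3 negative and 1 positive. Ccr7, the lymph node homing receptor, lay at −1.20 and −2.25, Dapl1 at −1.02 and −2.12, Igfbp4, an insulin-like growth factor binding protein, at −0.16 and −1.60, and the antiproliferative gene Btg1 at −1.16 and −0.62. Slfn2, a quiescence gene, at −1.01 and −0.75, Myb, a progenitor factor, at 1.01 and 0.56, and Btg2 at −0.13 and 1.09 complete these calls and were named after their values were seen. The 2 probes of Myb differed by more than its value (SD 2.15 on the Th1 array). In the difference Ccr7 (−1.05), Dapl1 (−1.10) and Igfbp4 (−1.44) were at least 2-fold negative and Btg2 (1.22) positive. The list had medians of −0.50 and −0.23 on the 2 arrays, and both turned positive when the arrays were centred on their most repeated values (0.35 and 0.19) or on pan T cell markers (0.19 and 0.76).

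Of 11 measured effector differentiation factors, 1 was called negative and 1 positive on the Th1 array, and 1 negative and 2 positive on the Th17 array. Tbx21, the Th1 master regulator, lay at −1.25 and 0.87, and Irf4, a factor of activated T cells, at −0.71 and −2.41. Eomes lay at 2.29 and 2.33, from 2 probes that differed widely (SD 2.83 and 2.34). Prdm1, which encodes Blimp-1 and is repressed by Bach2, lay at 0.50 and 1.21, also from 2 probes that differed widely (SD 0.65 and 1.15), and Bach2 at −0.57 and −1.29.

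Markers of T cells as a whole lay on the same side of 0 as most members. All 11 measured pan T cell markers were below 0 on the Th1 array, with a median of −0.69 and a range of −1.43 to −0.07, and 3 were called negative; the most repeated value as zero turns that median to 0.16. For the Th17 array 9 of 11 were below 0, with a median of −0.997, a range of −1.34 to 0.43 and 5 called negative. The values are ratios with no level of either channel, so whether a marker was present cannot be read from them. A difference in the share of T cells and a difference in RNA per T cell cannot be told apart in bulk RNA, in either direction. Myeloid markers lay opposite on the Th1 array: 15 of 15 were above 0, from 0.03 to 2.98, and 13 were called positive. For the Th17 array 8 of 15 were above 0, from −2.04 to 2.14, with 6 called positive and 2 negative. B cell markers had 1 call of 8 on each array (Cr2, at −1.12 and −1.25). Markers of CD8 T and NK cells had 3 negative calls and 1 positive call of 8 on the Th1 array, and 1 negative and 2 positive calls on the Th17 array. The part of the cell mixture in the members' values was not tested. The following centring cannot test it, because it subtracts the same constant from every gene of an array.

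Set to the median of the pan T cell markers, an alternative chosen after the data were seen, the members spread to both sides. Of the 8, 4 lay below 0 on the Th1 array and 3 on the Th17 array, beside 13.2% and 5.54% of all genes. Satb1 on the Th1 array, at −1.15, was then the 1 negative call on either array. The share of all genes called was not computed at this zero point. Il7r lay at −0.60 there and at 0.21 on the Th17 array. Bach2 and S1pr1 lay at −0.29 and −0.28 on the Th17 array, and at 0.12 and 0.18 on the Th1 array. Klf2 lay at 0.89 and 0.91, and Lef1 at 0.30 and 1.04, a positive call on the Th17 array.

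The zero point also mattered without reference to T cells. As deposited, 7 of 8 members lay below 0 on the Th1 array, beside 57.4% of all genes, and 7 of 8 on the Th17 array, beside 53.7%. On the Th1 array centring on the median of all probes raised every value by 0.11 and left 7 below 0, beside 46.5% of all genes. Centring on control genes lowered every value by 0.25 and put all 8 below 0, beside 76.9% of all genes. Klf2 was then at −0.05 and Foxo1, at −1.16, was past 2-fold. Centring on the most repeated value, which may be that of probes whose channels are equally bright, raised every value by 0.85. It left 3 members below 0, beside 9.45% of all genes: Satb1 at −0.99, Il7r at −0.44 and Foxo1 at −0.06. For the Th17 array the same centring raised every value by 0.43 and left 6 of 8 below 0, beside 18.7% of all genes. There 0 members were called, with Bach2 at −0.86 and S1pr1 at −0.85. Centring the Th17 array on the median of all probes ended the call of Satb1 there, at −0.98. For these other zero points the share of all genes called was not computed.

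**Figure D3:**
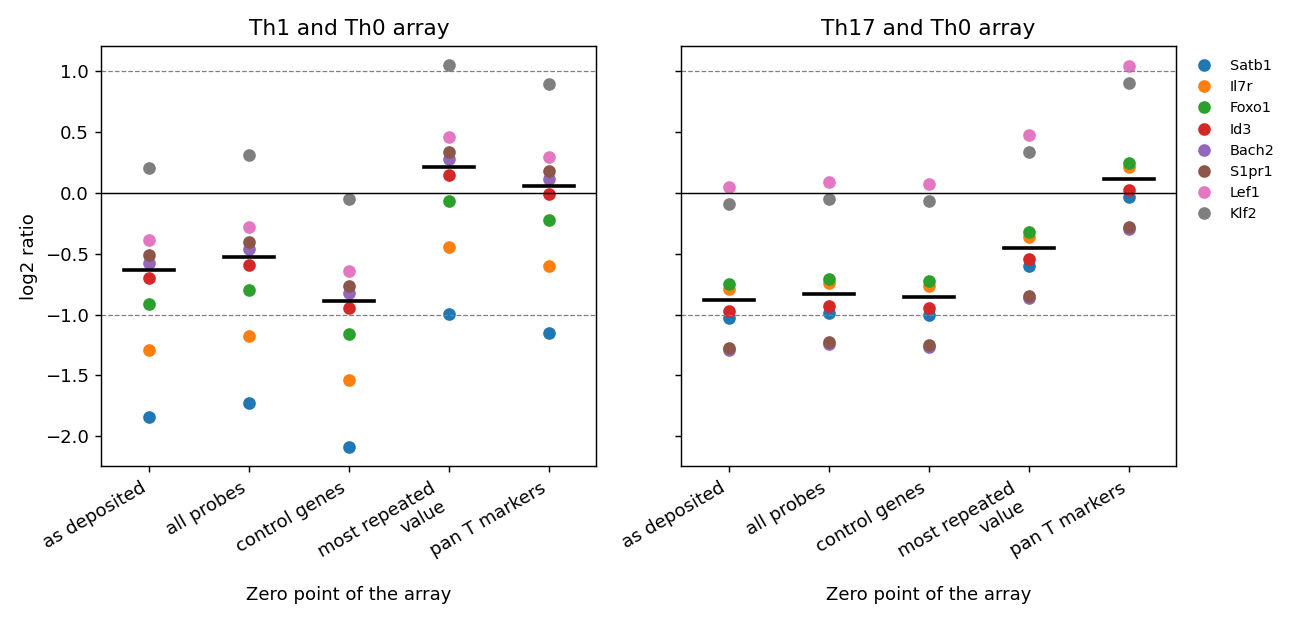
Log2 ratio of each of the 8 measured genes (coloured points) and their median (black bar) on each array under 5 zero points (horizontal axis); dashed lines mark 2-fold. The medians lie at −0.64 and −0.88 as deposited and at 0.054 and 0.12 with pan T cell markers as zero, and the order of the genes within an array is the same in every column.

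**Figure D4:**
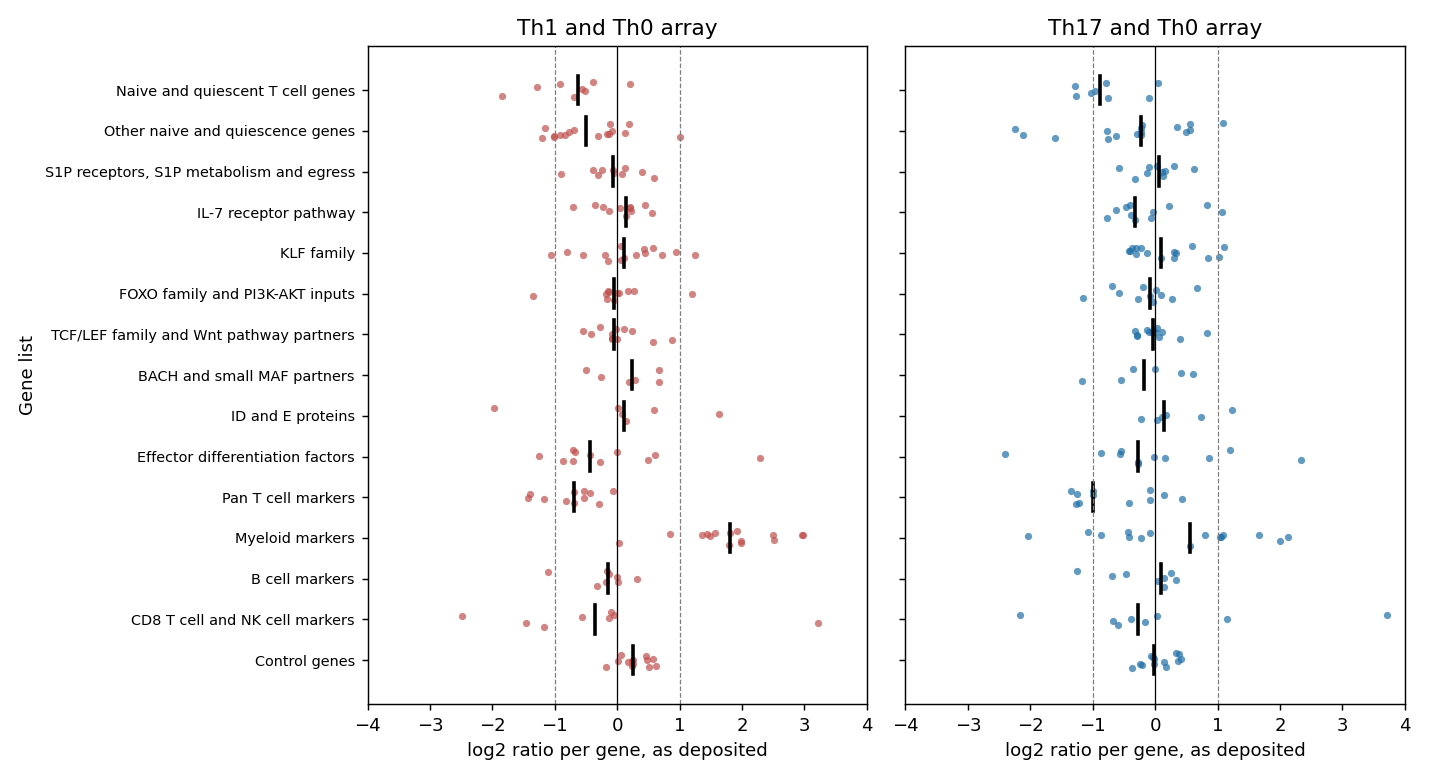
Log2 ratio per gene as deposited (horizontal axis) for 15 gene lists (vertical axis) on each array; black bars are medians and dashed lines mark 2-fold. The naive and quiescent genes (−0.64 and −0.88) and the pan T cell markers (−0.69 and −0.997) have similar medians on each array, both of which depend on the zero point, and the myeloid markers stand at 1.80 and 0.56.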

How the data were processed

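The deposited table held 1 value per probe for each of 2 arrays, 36547 probes in all, with no value column unused. Its values were taken as the authors' log2 ratios; this was read from the deposited values, which have both signs and whose repeated values lie apart from the most repeated one (−0.8485 and −0.4263) by log2 of small whole-number ratios. Scanner, background correction, normalisation, numerator and centring are not given in the sources used here. Column medians over probes were −0.11 (Th1 array) and −0.045 (Th17 array). Per the labels' protocols, each labelling started from 500 ng of RNA.

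Probes were named through the platform's annotation, which can be old: 26926 carried 1 gene, 203 several and 9418 none. Gene numbers matched a current list (GRCm38.p6, names only) for 26774 of the single-gene probes, and 0 symbols changed. Probes of a gene were averaged. The difference is the Th17 array minus the Th1 array. With 1 array a group there was no test and no p-value. The members and 15 further gene lists with measured genes were chosen with earlier results of these data known. All members were named, and of each other list up to 4 genes with the largest absolute value, all lineage genes, or genes behind a small count. A weaker channel was sought as the smallest whole-number pair giving a probe's distance from the most repeated value within 6e-05 on the log2 scale, which assumes equal signals at that value. Scripts were tested on simulated data (Python 3.11.15, pandas 2.3.3, numpy 2.4.6). Other zero points, probe summaries and a 1.5-fold threshold were tried.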

Additional observations from a re-analysis of the deposited data

Results flagged for a closer look

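Of the 169 measured genes of all lists, 16 lay on opposite sides of 0 on the 2 arrays and at least 2-fold apart between them. None is one of the naive and quiescent genes, and these differences were not tested. The share of all 17501 genes that meet this rule was not computed, so neither count has a background beside it. The lists were chosen with earlier results of these data known. Values are log2 ratios, on the Th1 array and then the Th17 array, with the difference in parentheses. Btg2 lay at −0.13 and 1.09 (1.22). Of the KLF genes, Klf9 lay at 1.25 and −0.31 (−1.56) and Klf10 at 0.71 and −0.37 (−1.08). Hmox1 lay at 0.28 and −1.17 (−1.44), and Id4 at −1.98 and 0.18 (2.16). Of the lineage genes, Tbx21 lay at −1.25 and 0.87 (2.12), Il12rb2 at −0.59 and 1.01 (1.60), Il17a at 0.29 and −5.37 (−5.67), and Il17f at 0.06 and −2.38 (−2.44). Of the myeloid markers, Lyz1 lay at 2.97 and −0.87 (−3.84), Mpeg1 at 2.50 and −0.42 (−2.93), Cd14 at 0.84 and −2.04 (−2.88), Cybb at 1.80 and −1.07 (−2.87), Lyz2 at 1.80 and −0.44 (−2.23) and Cd68 at 1.57 and −0.23 (−1.80). The NK cell receptor gene Klra3 lay at −0.57 and 1.15 (1.72). Which genes lie on opposite sides depends on the zero point of each array.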

How the results depend on the processing

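No result has a replicate, so all values here describe 2 arrays. Of 51 counts and medians recomputed, 33 stayed within the limits used (1.5 times for a count, the pooled probe SD for a median) and 18 moved by more. Of 144 values of single members, 118 moved by less than the probe SD and 26 by more. This tally of single members is no measure of robustness. A zero point moves every member of an array by the same constant. For a gene with 1 probe no probe summary can change the value, and with 2 probes the median equals the mean. At 1.5-fold the negative calls were 4 of 8 on the Th1 array (16.5% of all genes) and 6 of 8 on the Th17 array (13.0%), and the difference held 2 negative calls and 1 positive. Counted as single probes, negative calls on the Th17 array were 5 of 13 (5.72% of all single-gene probes), and the difference held 1 positive call of 13 (4.63%). With the most repeated value as zero, negative calls were 0 on both arrays, Klf2 was the 1 positive call on the Th1 array, the difference held 2 negative calls, and the Th1 array median was 0.21. With pan T cell markers as zero, negative calls were 1 on the Th1 array and 0 on the Th17 array, Lef1 was the 1 positive call on the latter, the difference held 1 positive call, and the medians were 0.054 and 0.12. With control genes as zero the difference held 1 positive call. These moves follow from the construction of each zero point, which shifts all genes of an array alike. The share of all genes called moves with the zero point too and was not computed, so these calls have no background beside them.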
